A study of Mus musculus with 4 samples.

Results

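A set of 10 genes of lipoprotein assembly was described in embryonic mouse liver. They include Apob, for the structural protein of very low density lipoprotein (VLDL) particles, and Mttp, for the lipid transfer protein that helps to assemble them. The others are the high density lipoprotein (HDL) genes Apoa1 and Apoa2, the exchangeable apolipoprotein genes Apoa4, Apoc1, Apoc3 and Apoe, and Apom and Apoh. Members were chosen by gene symbol, through the Ensembl transcript identifiers of their isoforms, and all 10 were present among the 33777 named genes held by both liver libraries. They carry 34 reference isoforms. Whole embryos could be read on a shorter stretch of the genome, in which 2 of the 10 genes (Apob and Apoh) lie among 4201 named genes.

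RNA sequencing of total RNA was done on 4 libraries, 1 per group. The livers came from mice labelled Adar1-/- Mavs-/- and mice labelled Adar1-/-, both at E15.5 (embryonic age in days) and of strain C57B6/J. The whole embryos came from mice labelled Adar1-/- Mavs-/- and mice labelled Adar1-/-, both at E11.5 and of strain C57B16/N. All groups therefore carry the Adar1-/- label, and no wild-type library was analysed here. How the alleles were made, and how many animals went into a library, is not stated in the sources used here. ADAR1 edits adenosines in double-stranded RNA, and MAVS passes on the signal of RNA sensors. By the labels, the comparison within a tissue asks what loss of Mavs adds to loss of Adar1.

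In hepatocytes, MTTP and protein disulfide isomerase (the product of P4hb) load lipid onto the growing apolipoprotein B chain in the endoplasmic reticulum, and the particle leaves as VLDL. HDL starts outside the cell, when apolipoprotein A-I takes up lipid through the transporter ABCA1. Apolipoproteins C and E move between particles and set how lipases and receptors handle them, and the fetal liver and the yolk sac are known sources of these proteins before birth.

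Values are FPKM, a fragment count corrected for transcript length and for the mapped fragments of the library, summed over a gene's isoforms, with the deposited lower and upper bounds of the estimate. Differences are log2 ratios within a tissue, Adar1-/- Mavs-/- over Adar1-/- as labelled, computed on FPKM plus 1 once 1 factor per tissue had been applied. Adding 1 makes differences of genes with low values look smaller. A gene was counted with at least 1 FPKM in either library, and 2-fold means a log2 ratio of 1 or more either way. Since each group has 1 library, nothing measures how animals vary, and no test was made. The bounds cover estimation within a library only.

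Hepatocyte markers and the targeted genes were read first. All 15 hepatocyte markers were counted in both liver libraries, with a summed level of 14826.0 FPKM in the liver labelled Adar1-/- Mavs-/- and 14086.5 FPKM in the liver labelled Adar1-/-. Adar had 4.11 FPKM in the liver labelled Adar1-/- Mavs-/- and 5.56 FPKM in the liver labelled Adar1-/-. Isoforms above 0 spanned the whole Adar gene in the liver labelled Adar1-/- Mavs-/-, where 3 of 8 reference isoforms were above 0. They left 42.3% of the gene's span, introns included, outside any isoform above 0 in the liver labelled Adar1-/-, where 0 of 8 reference isoforms were above 0. The library labelled Adar1-/- Mavs-/- may go against its label, but the Adar1 allele is not described, so these spans do not settle it. Each liver direction is one between libraries with these labels. Mavs had 9.96 FPKM in the liver labelled Adar1-/- Mavs-/- and 7.26 FPKM in the liver labelled Adar1-/-, with isoforms above 0 across the whole gene in both livers. The labels do not describe the Mavs allele, so its RNA level is no check of genotype. The embryo labels were not checked, since Adar on chromosome 3 and Mavs on chromosome 2 lie outside the stretch read there. Other cell types also differed between the livers. Of 13 skeletal and heart muscle markers in both libraries, 11 were counted, all of them lower by 2-fold or more, with summed levels of 10.8 FPKM in the liver labelled Adar1-/- Mavs-/- and 173.1 FPKM in the liver labelled Adar1-/-. Erythroid markers, 7 of 7 counted, summed to 2881.3 FPKM in the liver labelled Adar1-/- Mavs-/- and 2142.4 FPKM in the liver labelled Adar1-/-. Macrophage markers, 13 of 13 counted, summed to 257.5 FPKM in the liver labelled Adar1-/- Mavs-/- and 207 FPKM in the liver labelled Adar1-/-. Endothelial and stellate markers, 12 of 12 counted, summed to 169.3 FPKM in the liver labelled Adar1-/- Mavs-/- and 242.6 FPKM in the liver labelled Adar1-/-. Their part in the values below was not tested. In bulk tissue, fewer cells of a type and less RNA per cell cannot be told apart.

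Most members were well expressed in both liver libraries, and no counted member differed by 2-fold between them. The 10 members summed to 3309.1 FPKM in the liver labelled Adar1-/- Mavs-/- and 3466.8 FPKM in the liver labelled Adar1-/-. These sums were 0.217% and 0.288%, in that order, of the summed FPKM of all named genes. Of the 10, 8 were counted, and Apoa4 and Apoc3 stayed under 1 FPKM in both libraries. The log2 ratios of the 8 ran from -0.47 (Apoe) to 0.44 (Apob) with a median of -0.04, and 0 of 8 were at least 2-fold higher or lower. Among all 13598 genes counted, 7.18% were higher by 2-fold or more and 10.1% lower, and the median was -0.12. Among the 674 genes of at least 100 FPKM in either library, a class that holds 7 of the 8, 6.68% were higher by 2-fold or more and 3.86% lower, and the median was 0.23. With shares of that size, a count of 0 among 8 genes is not a result about the members. The median of the members was above 0 with an upper quartile factor (0.09) and with a factor from the hepatocyte markers (0.07).

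**Figure D1:**
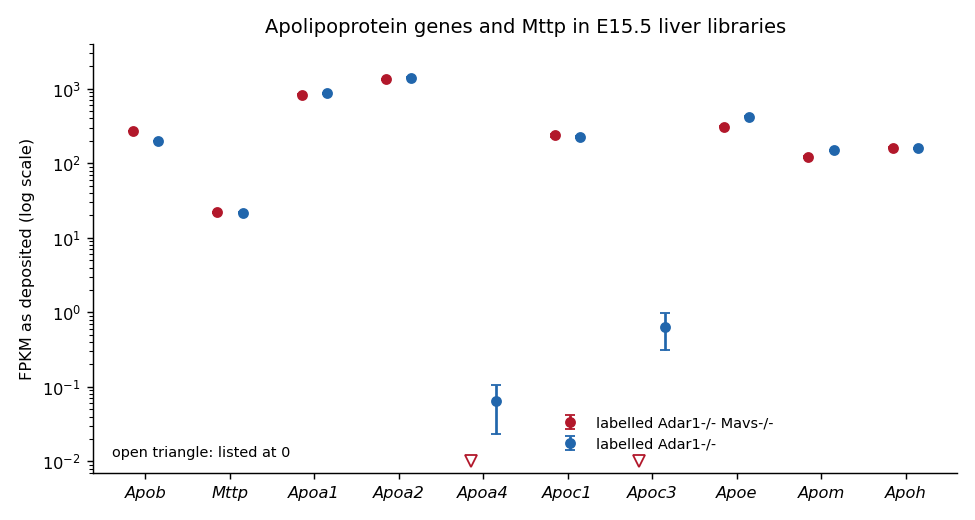
FPKM as deposited (log axis) of the 10 members in the E15.5 liver libraries labelled Adar1-/- Mavs-/- (red, left) and Adar1-/- (blue, right). Points are single libraries, bars are the deposited bounds, and open triangles mark genes listed at 0. Of the 10 members, 8 lie between 21.87 and 1418.2 FPKM in both libraries, and Apoa4 and Apoc3 lie under 1 FPKM.

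After scaling, the bounds of the estimates did not overlap for 5 of the 8 members. Apob was above, and Apoa1, Apoa2, Apoe and Apom were below, their level in the liver labelled Adar1-/-. For Apoc1, Apoh and Mttp the bounds overlapped. Bounds apart were common, at 71.4% of all genes counted, and they hold no variation between animals. Apob (0.12 to 0.57), Apoe (-0.78 to -0.34) and Apom (-0.64 to -0.20) kept their sign under all alternatives run for them, whereas the log2 ratios of Apoa1, Apoa2, Apoc1, Apoh and Mttp changed sign with the scaling.

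**Figure D2:**
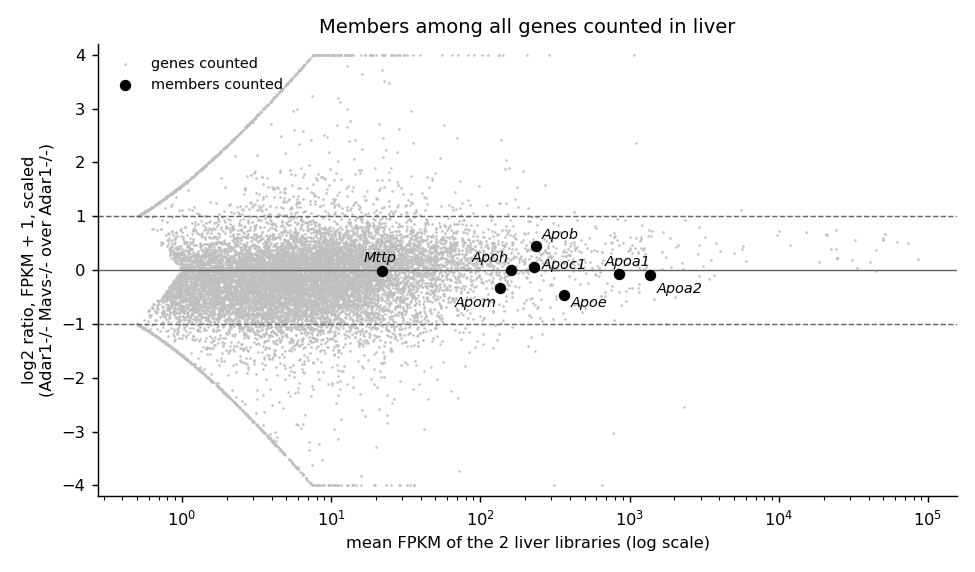
Log2 ratio (Adar1-/- Mavs-/- over Adar1-/-, FPKM + 1, scaled) against mean FPKM of the liver libraries (log axis), for the 13598 genes counted (grey) and the 8 members counted (black); ratios beyond 4 either way are drawn at 4. Dashed lines mark 2-fold, and all 8 members lie between them, from Apoe at -0.47 to Apob at 0.44.

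Apob encodes the large protein that stays with each VLDL particle. Its gene lies at chr12:7984454-8023641 (mm9, plus strand) and spans 39188 bases. Apob had 273.3 FPKM (bounds 272.1 to 274.5) in the liver labelled Adar1-/- Mavs-/- and 198.5 FPKM (bounds 197.6 to 199.5) in the liver labelled Adar1-/-, a log2 ratio of 0.44. It was the member with the highest ratio, yet 52% of all counted genes had a smaller ratio in size, so its difference was of ordinary size. Set against albumin within each library, a measure that no scaling touches, Apob stood at 0.0411 of the Alb level in the liver labelled Adar1-/- Mavs-/- and at 0.0415 in the liver labelled Adar1-/-. Alb, the main plasma protein gene of the liver, had 6647.8 FPKM in the liver labelled Adar1-/- Mavs-/- and 4786.8 FPKM in the liver labelled Adar1-/-, a log2 ratio of 0.45. That was the highest ratio of the 15 hepatocyte markers, whose median was -0.12, so a proportion to Alb depends on this choice of marker.

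Both Apob isoforms above 0 hold the site at which the enzyme APOBEC1 is known, in intestine and in rodent liver, to change the first base of a CAA codon in the mRNA and so create a stop codon that shortens the protein. The site is shown because the enzyme's partners were among the genes measured. It was found in the GENCODE M21 transcripts by the 9 letters TGATCAGTA, which occur once in each isoform, and the CAA codon (in capitals) is in frame, as codon 2179 of ENSMUST00000037811.
Apob CAA site: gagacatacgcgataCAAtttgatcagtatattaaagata
The window covers bases 6651 to 6690 of ENSMUST00000037811 and bases 6421 to 6460 of ENSMUST00000037520. FPKM values carry no base calls, so editing at this codon was not measured. ENSMUST00000037811, with 29 exons, had 190.7 FPKM in the liver labelled Adar1-/- Mavs-/- and 143.1 FPKM in the liver labelled Adar1-/-. ENSMUST00000037520, with 28 exons, had 82.61 FPKM in the liver labelled Adar1-/- Mavs-/- and 55.44 FPKM in the liver labelled Adar1-/-. The isoforms differ in their first and last bases and inside the coding sequence, since the CAA is codon 2146 of ENSMUST00000037520. Each isoform had a higher value in the liver labelled Adar1-/- Mavs-/-, with log2 ratios of 0.39 and 0.55.

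The Apob mRNA editing list holds 6 genes, among them the Apobec1 relatives Apobec2 and Apobec3. All were counted, 2 were at least 2-fold lower (1 with reference isoforms only) and 0 higher. Over all genes counted in liver, 10.1% were lower and 7.18% higher. The median log2 ratio of the list was -0.31, or -0.22 with reference isoforms only. Rbm47, an RNA-binding cofactor of APOBEC1, had 1.35 FPKM (bounds 1.22 to 1.48) in the liver labelled Adar1-/- Mavs-/- and 8.44 FPKM (bounds 8.08 to 8.805) in the liver labelled Adar1-/-, a log2 ratio of -2.02. A1cf, the other known cofactor, had 19.3 FPKM in the liver labelled Adar1-/- Mavs-/- and 16.9 FPKM in the liver labelled Adar1-/-, with bounds that overlapped. Its log2 ratio was 0.16, but -0.04 with reference isoforms only. Apobec1 itself, named after its value was seen, had 2.88 FPKM in the liver labelled Adar1-/- Mavs-/- and 3.865 FPKM in the liver labelled Adar1-/-, with overlapping bounds. Syncrip, an RNA-binding protein found with the editing complex, was at 0.20. Apobec3, an antiviral deaminase of the same family, was at -0.28. Apobec2, a muscle relative named after its value was seen, had 1.80 FPKM in the liver labelled Adar1-/-, all of it from assembled isoforms, and was listed at 0 in the other.

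Mttp, the lipid transfer protein without which apolipoprotein B is not secreted, was the lowest of the 8 counted members. Mttp lies at chr3:137752819-137806352 (minus strand) and had 22.01 FPKM (bounds 21.47 to 22.55) in the liver labelled Adar1-/- Mavs-/- and 21.87 FPKM (bounds 21.38 to 22.36) in the liver labelled Adar1-/-, a log2 ratio of -0.01 (0.12 with an upper quartile factor). P4hb, its partner subunit and an abundant disulfide isomerase with many other substrates, had 183.1 FPKM (bounds 179.3 to 187) in the liver labelled Adar1-/- Mavs-/- and 295.9 FPKM (bounds 291.4 to 300.3) in the liver labelled Adar1-/-, a log2 ratio of -0.71. The P4hb level was therefore 8.32 times the Mttp level in the liver labelled Adar1-/- Mavs-/- and 13.5 times in the liver labelled Adar1-/-. Apob stood at 12.4 times Mttp in the liver labelled Adar1-/- Mavs-/- and 9.08 times in the liver labelled Adar1-/-.

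The other genes of assembly and secretion were mixed. Of 20 genes, 17 were counted, 2 lower and 0 higher by 2-fold or more, 10 were below 0, and the median was -0.40. The share lower by 2-fold or more over all genes counted was 10.1%. Pdia3, a disulfide isomerase for glycoproteins, had 74.4 FPKM in the liver labelled Adar1-/- Mavs-/- and 182.9 FPKM in the liver labelled Adar1-/-, a log2 ratio of -1.31. Dgat1, which makes triglyceride and was named after its value was seen, had 1.76 FPKM in the liver labelled Adar1-/-, all of it from assembled isoforms, and was listed at 0 in the other. Dgat2, the other enzyme of that step, was at -0.95, and Surf4, a cargo receptor for lipoproteins leaving the endoplasmic reticulum, at -0.87. Canx, the chaperone calnexin, had 155.6 FPKM in the liver labelled Adar1-/- Mavs-/- and 234.2 FPKM in the liver labelled Adar1-/-, a log2 ratio of -0.61. Soat2, which esterifies cholesterol, was at 0.76, but at -0.42 with reference isoforms only.

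Apoa1 and Apoa2 encode the main proteins of HDL and were the most abundant members. Apoa2, at chr1:173155185-173156510 (plus strand), had 1346.0 FPKM (bounds 1325.8 to 1366.2) in the liver labelled Adar1-/- Mavs-/- and 1418.2 FPKM (bounds 1399.7 to 1436.7) in the liver labelled Adar1-/-, a log2 ratio of -0.09. Apoa1, at chr9:46036663-46038549 (plus strand), had 838.7 FPKM (bounds 831.5 to 845.9) in the liver labelled Adar1-/- Mavs-/- and 872.2 FPKM (bounds 865.6 to 878.9) in the liver labelled Adar1-/-, a log2 ratio of -0.08. Both were thus slightly below their level in the liver labelled Adar1-/-, and both were above it with an upper quartile factor (0.04 for Apoa2 and 0.06 for Apoa1) and with the hepatocyte factor (0.02 for Apoa2 and 0.04 for Apoa1). Within each library they kept nearly the same proportion, with Apoa1 at 0.623 of Apoa2 in the liver labelled Adar1-/- Mavs-/- and 0.615 in the liver labelled Adar1-/-. Apoa2 made up 40.7% of the summed FPKM of the members in the liver labelled Adar1-/- Mavs-/- and 40.9% in the liver labelled Adar1-/-. By level it ranked 71 in the liver labelled Adar1-/- Mavs-/- and 61 in the liver labelled Adar1-/- among all named genes, and Apoa1 ranked 113 in the liver labelled Adar1-/- Mavs-/- and 99 in the liver labelled Adar1-/-.

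Apoe, the ligand of the LDL receptor and its relatives, was the member with the lowest ratio. Apoe, at chr7:20281458-20284515 (minus strand), had 308.8 FPKM (bounds 304.2 to 313.4) in the liver labelled Adar1-/- Mavs-/- and 421.4 FPKM (bounds 416.2 to 426.6) in the liver labelled Adar1-/-, a log2 ratio of -0.47. Hepatocytes and macrophages are both known to make Apoe. Of the 15 hepatocyte markers 7 lay above 0 and 8 below, and of the 13 macrophage markers 11 lay above and 2 below. What either cell type adds to the Apoe difference was not tested. Relative to Alb within a library, Apoe stood at 0.0465 in the liver labelled Adar1-/- Mavs-/- and 0.088 in the liver labelled Adar1-/-. Alb had the highest log2 ratio of the 15 hepatocyte markers. Apoa1 also stood lower against Alb, at 0.126 in the liver labelled Adar1-/- Mavs-/- and 0.182 in the liver labelled Adar1-/-. The Apob to Apoe proportion was 0.885 in the liver labelled Adar1-/- Mavs-/- and 0.471 in the liver labelled Adar1-/-.

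The Apoe isoforms were not lower by the same amount. ENSMUST00000003066 had 260.5 FPKM in the liver labelled Adar1-/- Mavs-/- and 309.6 FPKM in the liver labelled Adar1-/-, a log2 ratio of -0.27. ENSMUST00000174355 had 48.34 FPKM (bounds 46.11 to 50.58) in the liver labelled Adar1-/- Mavs-/- and 111.8 FPKM (bounds 108.8 to 114.8) in the liver labelled Adar1-/-, a log2 ratio of -1.21. Its share of the gene was 15.7% in the liver labelled Adar1-/- Mavs-/- and 26.5% in the liver labelled Adar1-/-. Both are annotated with 4 exons and 933 coding bases over nearly the same span, so the split of reads between them is itself an estimate. Of the 12 member isoforms of at least 1 FPKM this was the 1 at least 2-fold lower, and 0 were at least 2-fold higher, where 20.5% of all reference isoforms of that level were lower and 11% higher. Apoa2, Apob and Apoc1 also had a pair of isoforms each, and there the share of the more abundant isoform differed by less. That share was 66.1% in the liver labelled Adar1-/- Mavs-/- and 60.2% in the liver labelled Adar1-/- for Apoa2, and 69.8% in the liver labelled Adar1-/- Mavs-/- and 72.1% in the liver labelled Adar1-/- for Apob. For Apoc1 it was 75.3% in the liver labelled Adar1-/- Mavs-/- and 71.6% in the liver labelled Adar1-/-.

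**Figure D3:**
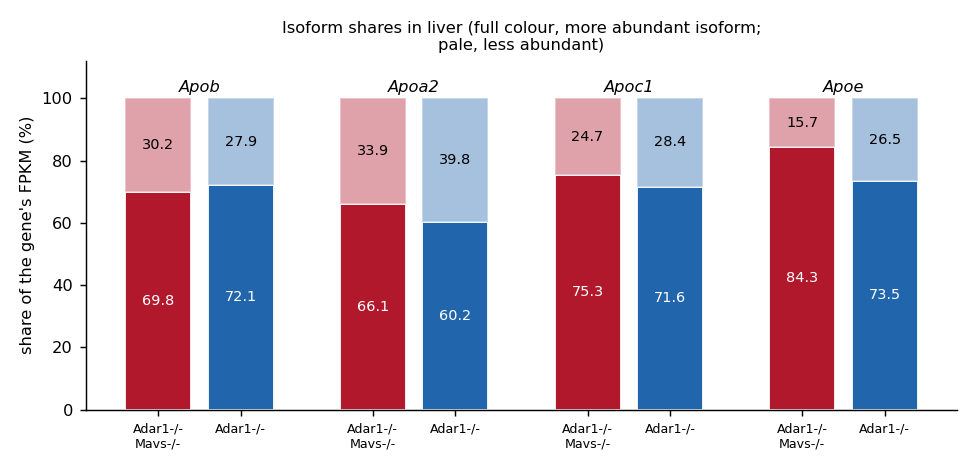
Share (%) of each gene's FPKM taken by its reference isoforms above 0 in the liver libraries labelled Adar1-/- Mavs-/- (red, left bar of a pair) and Adar1-/- (blue, right bar), for the 4 members with a pair of such isoforms. Full colour marks the more abundant isoform and pale colour the less abundant, whose share for Apoe was 15.7% in the liver labelled Adar1-/- Mavs-/- and 26.5% in the liver labelled Adar1-/-.

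Apoc1, an inhibitor of lipid transfer and receptor uptake, is the downstream neighbour of Apoe. Apoc1 lies at chr7:20274833-20278007 (minus strand) and had 237.3 FPKM (bounds 229.1 to 245.6) in the liver labelled Adar1-/- Mavs-/- and 224.2 FPKM (bounds 216.9 to 231.6) in the liver labelled Adar1-/-, a log2 ratio of 0.06 (-0.25 with TPM) with overlapping bounds. The Apoe to Apoc1 proportion was 1.3 in the liver labelled Adar1-/- Mavs-/- and 1.88 in the liver labelled Adar1-/-. Apoc4 and Apoc2 follow within the 27588 bases of the cluster. Apoc2, the cofactor of lipoprotein lipase, had 207 FPKM in the liver labelled Adar1-/- Mavs-/- and 202.6 FPKM in the liver labelled Adar1-/-. Apoc4 had 81.1 FPKM in the liver labelled Adar1-/- Mavs-/- and 92.2 FPKM in the liver labelled Adar1-/-. The values of Apoc2 and Apoc4 are uncertain, since another annotated gene overlaps both. All 4 genes of the cluster were thus well expressed in both livers.

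The cluster on chromosome 9 was different. Apoa1, Apoc3 and Apoa4 lie within 14880 bases, and Apoa1 alone was abundant. Apoc3, an inhibitor of lipase action known as abundant in adult liver, lies at chr9:46041016-46043719 (minus strand). Apoc3 was listed at 0 in the liver labelled Adar1-/- Mavs-/- for all 4 of its reference isoforms, and had 0.636 FPKM (bounds 0.310 to 0.991) in the liver labelled Adar1-/-. Apoa4, known for the intestine and for lipid absorption, lies at chr9:46048779-46051542 (plus strand). Apoa4 was also listed at 0 in the liver labelled Adar1-/- Mavs-/- and had 0.0653 FPKM (bounds 0.0236 to 0.107) in the liver labelled Adar1-/-. A value of 0 can be a failed estimate, so no fold is given. The neighbour Apoa5, a regulator of triglyceride in plasma that was named, after its value was seen, for its place in the cluster, had 0.114 FPKM in the liver labelled Adar1-/- Mavs-/- and 0.144 FPKM in the liver labelled Adar1-/-. Gut epithelium is the other main site of Apoa4. Of 10 gut markers 6 were counted, with summed levels of 21.82 FPKM in the liver labelled Adar1-/- Mavs-/- and 25.46 FPKM in the liver labelled Adar1-/-. In that order of livers, Krt20 had 8.65 and 9.01 FPKM, Tff3 5.42 and 7.16, and Lgals2 5.08 and 4.79. Cdx1, Cdx2 and Vil1 (named after their values were seen) were listed at 0 in both.

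**Figure D4:**
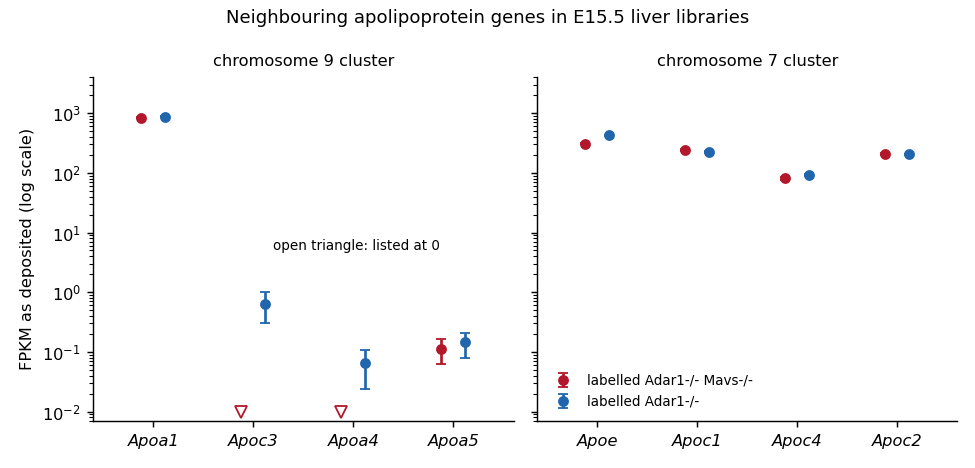
FPKM as deposited (log axis) of neighbouring apolipoprotein genes, in their order along chromosome 9 and, from Apoe, along chromosome 7, in the liver libraries labelled Adar1-/- Mavs-/- (red, left) and Adar1-/- (blue, right). Bars are the deposited bounds and open triangles mark genes listed at 0. On chromosome 9 the neighbours of Apoa1 lie under 1 FPKM, whereas the 4 chromosome 7 genes lie between 81.1 and 421.4 FPKM.

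Apom, a lipocalin that carries sphingosine-1-phosphate on HDL, was the other member below 0 under all scalings run. Apom lies at chr17:35265942-35268995 (minus strand) and had 121.3 FPKM (bounds 118.5 to 124) in the liver labelled Adar1-/- Mavs-/- and 150.6 FPKM (bounds 147.8 to 153.4) in the liver labelled Adar1-/-, a log2 ratio of -0.33. Apoh, which encodes the phospholipid-binding plasma protein beta-2-glycoprotein I, had 161.7 FPKM (bounds 158.8 to 164.6) in the liver labelled Adar1-/- Mavs-/- and 158.9 FPKM (bounds 156.3 to 161.5) in the liver labelled Adar1-/-, a log2 ratio of 0.01 (-0.31 with TPM). Its isoform above 0 lies at chr11:108256607-108275710 (plus strand). The order of the members by level was nearly shared. In the liver labelled Adar1-/- Mavs-/- it ran Apoa2, Apoa1, Apoe, Apob, Apoc1, Apoh, Apom and Mttp, and in the liver labelled Adar1-/- Apoc1 stood above Apob. Bounds of neighbours in that order did not overlap in either library. The deposited status was LOWDATA for Apoa1, Apoa2, Apoh and Apom in both libraries and OK for the other counted members, although these 4 were above 100 FPKM.

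Promoter sequence is shown for the members at the ends of the range of ratios (Apob and Apoe) and for Apoa2 and Apoh, whose windows hold the letters of motifs that liver regulators bind. Each window is the 250 bases before the gene's RefSeq start on the gene's own strand (RefSeq, build GRCm38.p6), and 8 of the 10 members had an entry. Capitals mark a TATA box (TATAAA), a forkhead site (TGTTTAC) or a nuclear receptor half-site (AGGTCA), each searched on both strands.
Apob promoter, chr12:7977427-7977676, plus strand: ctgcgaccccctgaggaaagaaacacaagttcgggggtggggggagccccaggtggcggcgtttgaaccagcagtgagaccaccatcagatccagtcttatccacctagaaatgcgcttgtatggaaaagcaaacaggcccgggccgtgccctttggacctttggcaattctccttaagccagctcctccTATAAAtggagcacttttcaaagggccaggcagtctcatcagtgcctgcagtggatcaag
Apoe promoter, chr7:19699189-19699438, minus strand: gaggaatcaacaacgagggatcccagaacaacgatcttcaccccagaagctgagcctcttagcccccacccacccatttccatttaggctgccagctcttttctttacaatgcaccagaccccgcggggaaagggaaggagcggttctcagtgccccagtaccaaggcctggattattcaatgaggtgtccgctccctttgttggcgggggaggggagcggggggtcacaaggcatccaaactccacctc
Apoa2 promoter, chr1:171224804-171225053, plus strand: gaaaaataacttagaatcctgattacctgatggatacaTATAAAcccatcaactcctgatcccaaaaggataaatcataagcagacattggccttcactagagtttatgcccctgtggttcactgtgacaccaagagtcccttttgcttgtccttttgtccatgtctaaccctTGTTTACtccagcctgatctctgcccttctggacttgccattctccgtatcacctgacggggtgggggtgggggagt
Apoh promoter, chr11:108395047-108395296, plus strand: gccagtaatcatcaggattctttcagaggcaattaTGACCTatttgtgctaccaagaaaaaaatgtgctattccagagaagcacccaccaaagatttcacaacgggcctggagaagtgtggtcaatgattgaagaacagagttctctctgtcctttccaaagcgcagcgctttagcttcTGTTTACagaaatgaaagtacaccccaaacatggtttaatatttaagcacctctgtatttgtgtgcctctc
The Apob window holds a TATA box that begins 60 bases before the RefSeq start, and the annotated start of ENSMUST00000037811 lies 29 bases before that start. The Apoa2 window holds a TATA box at 212 and a forkhead site at 77 bases, and the Apoh window a forkhead site at 71 and a half-site, on the other strand, at 215 bases. The Apoe window holds none of these letters, nor do those of Apoa1, Apoa4, Apom and Mttp. The Mttp window lies by a RefSeq start 12041 bases from the annotated start of its isoform above 0, so it is not beside the transcript measured here. For Apoe the RefSeq start lies 136 bases from the annotated start of ENSMUST00000003066, and for Apoa4 148 bases from that of its isoform. The annotated start of the Apom isoform lies at the far end of its window, so that window is almost wholly inside the transcript. A lack of letters in these windows therefore says little about the starts in use. Among 32851 windows of the same length, 12.4% hold the TATA letters, 3.17% the forkhead letters and 14% the half-site letters. A match of letters does not show binding.

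Genes that regulate apolipoprotein genes lay mostly below 0. Of 27 genes, 23 were counted, 3 lower and 0 higher by 2-fold or more, 22 were below 0, and the median was -0.45. Many are low in level. Among the 4772 counted genes with a mean from 5 to 20 FPKM the median was -0.11, 57.5% were below 0 and 8.15% were at least 2-fold lower. Hnf4a, the nuclear receptor best known for driving apolipoprotein genes in liver, had 21.6 FPKM (bounds 21 to 22.3) in the liver labelled Adar1-/- Mavs-/- and 26.1 FPKM (bounds 25.2 to 26.9) in the liver labelled Adar1-/-, a log2 ratio of -0.28. Insig1, which holds the sterol sensor in the endoplasmic reticulum, was also at -0.28. Scap, the sensor that escorts the SREBP factors, had 4.17 FPKM in the liver labelled Adar1-/- Mavs-/- and 11.2 FPKM in the liver labelled Adar1-/-, a log2 ratio of -1.26. Srebf2, which encodes the SREBP of sterol synthesis, had 5.73 FPKM in the liver labelled Adar1-/- Mavs-/- and 11.97 FPKM in the liver labelled Adar1-/-, a log2 ratio of -0.96. Nr2f6, a nuclear receptor, was at -1.01. Ppara, the fatty acid sensor, was at -0.94, and at -2.62 with reference isoforms only. Srebf1, named after its value was seen, had 2.32 FPKM in the liver labelled Adar1-/-, all of it from assembled isoforms, and was listed at 0 in the other.

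Sterol and fatty acid synthesis, which supplies the lipid of the particles, showed a similar list median of -0.48. Of 17 genes on the list 15 were counted, 2 were at least 2-fold lower, 0 higher, and 12 were below 0. All genes counted had 10.1% at least 2-fold lower and 57.6% below 0. Scd2, a fatty acid desaturase, had 32.5 FPKM in the liver labelled Adar1-/- Mavs-/- and 68.9 FPKM in the liver labelled Adar1-/-, a log2 ratio of -1.08. Acaca, which commits acetyl-CoA to fatty acids, was at -0.98. Dhcr7, a late sterol reductase, was at -0.93 (-0.38 with reference isoforms only), and Cyp51, the sterol demethylase, at -0.05.

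Genes that act on lipoproteins after secretion were read next. Of 15 remodelling genes 11 were counted, 1 lower and 0 higher by 2-fold or more (10.1% of all genes counted were lower), and the median was -0.45. Lcat, the plasma enzyme that esterifies HDL cholesterol and is activated by apolipoprotein A-I, had 7.09 FPKM (bounds 6.50 to 7.67) in the liver labelled Adar1-/- Mavs-/- and 19.6 FPKM (bounds 18.7 to 20.45) in the liver labelled Adar1-/-, a log2 ratio of -1.36. Abca1, the lipid exporter that starts HDL, was at -0.35. Scarb1, the HDL receptor, was at -0.74, and Lmf1, a lipase maturation factor, at -0.89.

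Of 16 receptor genes 13 were counted, 3 were at least 2-fold lower (6 with reference isoforms only) and 0 higher. All genes counted had 10.1% lower and 7.18% higher. The median of the receptor list was -0.50, or -0.98 with reference isoforms only. Lrp1, a receptor for particles that carry apolipoprotein E, had 5.95 FPKM in the liver labelled Adar1-/- Mavs-/- and 13.0 FPKM in the liver labelled Adar1-/-, a log2 ratio of -1.03. Lrp5, of the same receptor family, was at -1.07. Sort1, which binds apolipoprotein B inside the cell, was at -0.55 (-2.24 with reference isoforms only), and Lrpap1, a chaperone of these receptors, at 0.45. Lrp1 thus lay further below 0 than its ligand gene Apoe.

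Of 14 other apolipoprotein genes 8 were counted, 2 lower and 0 higher by 2-fold or more, beside 10.1% lower over all genes counted. With reference isoforms only, 1 was lower and 2 higher, so this count depends on how isoforms are assigned. The median of these 8 was -0.15. Clu, which encodes clusterin, also called apolipoprotein J, had 13.3 FPKM in the liver labelled Adar1-/- Mavs-/- and 30.2 FPKM in the liver labelled Adar1-/-, a log2 ratio of -1.14. Apoo, a mitochondrial protein despite its name, was at -1.88 with all isoforms and at 1.54 with reference isoforms only, so its direction rests on how isoforms are assigned. Its relative Apool was at 0.41, and Saa4, an HDL protein, at -0.50. Apoc2 was at 0.01 and Apoc4 at -0.20.

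**Figure D5:**
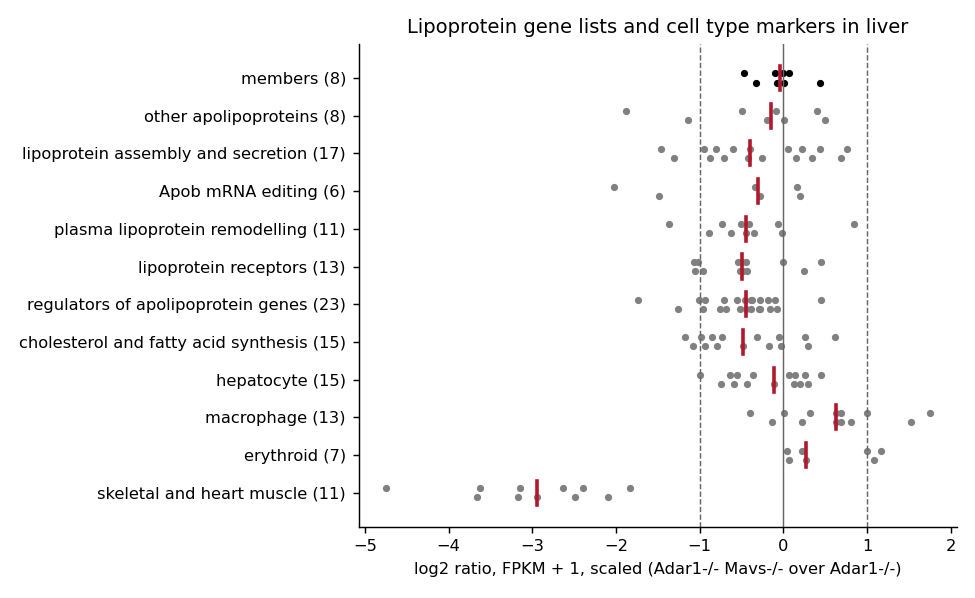
Log2 ratio (Adar1-/- Mavs-/- over Adar1-/-, FPKM + 1, scaled) in liver of each counted gene (points) of the members, 7 related gene lists and 4 marker lists, with the list median as a red bar and the number of genes in brackets. Dashed lines mark 2-fold. The members' median is -0.04 and that of the muscle markers -2.95.

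The hepatocyte markers give the nearest comparison, since hepatocytes are the known main source of both. Their log2 ratios ran from -0.9992 (Trf, which encodes transferrin and lay just inside the 2-fold bound) to 0.45 (Alb), with a median of -0.12. Trf had 1189.7 FPKM in the liver labelled Adar1-/- Mavs-/- and 2347.4 FPKM in the liver labelled Adar1-/-, and 0 of the 15 markers were called 2-fold. The range of the 8 members, -0.47 to 0.44, lay inside it. F2, which encodes prothrombin, was at -0.74, Vtn, vitronectin, at -0.63 (-1.84 with reference isoforms only), Serpinc1, antithrombin, at -0.59, and Afp, the fetal albumin relative, at 0.07. Yolk sac markers, the other known embryonic source of these proteins, summed to 25 FPKM in the liver labelled Adar1-/- Mavs-/- and 16.21 FPKM in the liver labelled Adar1-/-, with 3 of 9 counted. Most of both sums is Soat2, which the assembly list holds as well, with 21.58 FPKM in the liver labelled Adar1-/- Mavs-/- and 12.14 FPKM in the liver labelled Adar1-/-.

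In E11.5 embryos the stretch held by both libraries covers chromosomes 10 and 11 and chromosome 12 to 11.7 Mb. There Apob was near 1 FPKM. Apob had 0.482 FPKM (bounds 0.428 to 0.536) in the Adar1-/- Mavs-/- library and 1.284 FPKM (bounds 0.587 to 2.196) in the Adar1-/- library, a log2 ratio of -0.48, and the bounds overlapped after scaling. Most of that came from isoforms assembled from the reads, and the reference isoforms alone had 0.0735 FPKM in the Adar1-/- Mavs-/- library and 0.3245 FPKM in the Adar1-/- library. Different reference isoforms were above 0, ENSMUST00000037811 in the Adar1-/- Mavs-/- library and ENSMUST00000037520 in the Adar1-/- library. Apoh was listed at 0 in both embryo libraries, whereas it had 161.7 FPKM in the liver labelled Adar1-/- Mavs-/- and 158.9 FPKM in the liver labelled Adar1-/-. Of 1891 genes counted in the stretch, 7.35% were higher by 2-fold or more and 11.6% lower, and Apob, the 1 member counted, was neither. P4hb had 280.7 FPKM in the Adar1-/- Mavs-/- library and 268.7 FPKM in the Adar1-/- library, a log2 ratio of 0.46 after scaling, and Canx was at 0.06. As deposited the P4hb values were close, and most of its ratio came from the embryo factor of 1.318. That factor shifts by -0.40 on the log2 scale without scaling and by -0.96 with TPM.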

How the data were processed

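Whole embryos (E11.5) and embryonic livers (E15.5) gave 1 RNA sequencing library for each of 4 groups. TopHat 1.4.0, Cufflinks 2.2.1 and the mm9 build appear, with no stated role, in the submitters' processing notes. The deposited values are FPKM per isoform, normalized to the mapped fragments of the library, with bounds and a status, per the file headers. The deposited coverage gives the read depth averaged over an isoform. Divided by FPKM it was 7.13 and 8.58 in the livers labelled Adar1-/- Mavs-/- and Adar1-/-, and 5.62 and 3.48 in the embryos in that order. Read totals, strandedness and the treatment of shared reads are not stated in the sources used here. The median distance from value to bound was 4.88% and 4.39% of the value in liver, for genes of at least 5 FPKM, and 6.67% and 7.5% in embryos.

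Symbols came from the GENCODE M21 annotation (86.7% of reference isoforms matched in liver, 90.2% in embryos), and positions are the mm9 ones the authors deposited. Isoforms of a symbol were summed, together with assembled isoforms of the same Cufflinks gene that overlapped it best, and bounds were combined as the root of summed squares. Values of the libraries labelled Adar1-/- Mavs-/- were multiplied by 0.9867 in liver (from 6415 genes) and 1.318 in embryos (from 905 genes), which set the median log2 ratio of genes of at least 5 FPKM in both libraries to 0. Work was done in Python 3.11.15 with pandas 2.3.3 and numpy 2.4.6, and the scaling was tested on simulated data. No p-value was computed, because no group has a replicate.

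The members and the gene lists were chosen with earlier results of these data known. All 10 members are named, and for each other list up to 4 counted genes of at least 5 FPKM with the largest log2 ratio in size, then up to 2 with the highest level; genes named outside that rule are said to be. The median of the members is over the 8 counted. Alternatives were 2 other pseudocounts, other scalings, other ways of assigning isoforms and no filter on low values. Hba-a1, Hba-a2, Hbb-bt, Hbb-bs, Ahsp, Hmgcs1, Mvd, Acta1 and Rhox5, which stand on the lists, were not analysed here. A few genes of these lists enter the counts but are not reported here by name.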

Additional observations from a re-analysis of the deposited data

Results flagged for a closer look

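Apob lay on opposite sides of 0 in the tissues. Its log2 ratio was 0.44 in liver (273.3 FPKM in the liver labelled Adar1-/- Mavs-/- and 198.5 FPKM in the liver labelled Adar1-/-) and -0.48 in embryos (0.482 FPKM in the Adar1-/- Mavs-/- library and 1.284 FPKM in the Adar1-/- library). The difference between the tissues was not tested. The tissues also differ in age and strain, and the embryo value comes from a gene near 1 FPKM, whose log2 ratio was -0.91 with a pseudocount of 0.1 and -0.16 with a pseudocount of 5.

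An assembled fragment without a gene symbol inside the Apoh span stood out in embryos, where Apoh itself was listed at 0. It is 97 bases long, at chr11:108263766-108263862 (mm9), and had 515 FPKM (bounds 257 to 772) in the Adar1-/- Mavs-/- library. The nearest fragment in the Adar1-/- library, 176 bases long, had 24.8 FPKM. The liver libraries held 0 such fragments in that span. No library without these labels was analysed here to compare with.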

How the results depend on the processing

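In liver, across 11 alternatives, 0 members passed 2-fold either way. Of 84 liver values of single members under alternatives, 48 stayed inside the bounds of the value reported and 36 moved beyond them. In liver, Apob stayed above 0 and Apoe and Apom below 0 in all alternatives that gave a value. Apoa1, Apoa2, Apoc1, Apoh and Mttp changed sign with the scaling. Another scaling changes the factor itself, on the log2 scale and before the pseudocount is added, in liver by -0.32 with TPM, 0.13 with an upper quartile factor and 0.12 with a factor from the 15 hepatocyte markers (chosen after seeing the data), and in embryos by -0.40 without scaling, -0.96 with TPM and 0.18 with an upper quartile factor.

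The members' median of -0.04 became -0.35 with TPM, -0.12 when TPM left out the 50 most abundant genes, 0.09 with the upper quartile factor, 0.07 with the hepatocyte factor, 0.03 with isoforms of status OK only (which leaves 4 members) and -0.08 with no filter (10 members). The liver counts of 977 genes 2-fold higher and 1372 lower became 398 and 425 with a pseudocount of 5. The lower count was 2169 with a pseudocount of 0.1 and also when TPM left out the most abundant genes. The split was 686 higher and 1925 lower with TPM, 1095 and 1173 with the upper quartile factor, 1079 and 1187 with the hepatocyte factor, and 774 and 1902 with reference isoforms only. The embryo counts of 139 higher and 220 lower became 73 and 103 with a pseudocount of 5 and 83 and 1034 with TPM, and the lower count was 349 without scaling. Embryo Apob, at -0.48, was -1.66 with TPM, stayed below 0 in all 9 alternatives that gave a value, and was under 1 FPKM with reference isoforms only. Apart from the shifts and the smaller sets named here, the cause of these changes was not tested.

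Leaving out a replicate does not apply, as each group has 1 library. No paired analysis was possible because each group has 1 library and the labels give no replicate numbers. Whether Apoa4 and Apoc3 differ between the livers was not detectable at these levels.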
